A study of Mus musculus with 40 samples.

Results

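The 10 genes described here encode negative-feedback regulators of MAP kinase signalling: the dual-specificity phosphatases Dusp1, Dusp4, Dusp5, Dusp6 and Dusp10, the Sprouty proteins Spry1, Spry2 and Spry4, and the Sprouty-related proteins Spred1 and Spred2. They were chosen by symbol, with no threshold on measured values, and all 10 were found among the 55414 genes of the deposited table. Gene expression was measured by RNA sequencing in the mouse kidney line mpkCCD, which is immortalized and derives from the collecting duct, and this account covers 22 libraries. Of these, 11 were control clones with the genotype label WT, 5 carried the label ATF1-KO (single knockout), 3 ATF1/CREB1-KO (double) and 3 ATF1/CREB1/CREM-KO (triple); 18 rescue samples were not analysed here. All groups shared 1 treatment. The cells were polarized on Transwell supports for 4 days in medium with serum, insulin, 50 nM dexamethasone and 10 ng/mL EGF, and then kept for 3 days in a simple medium without EGF but with 50 nM dexamethasone and 0.1 nM dDAVP, a synthetic vasopressin analogue. The library numbers fall into 3 consecutive sets, which the labels do not call batches. Set 1 holds control clones 1 to 5 and ATF1-KO, set 2 holds control clones 6 to 8 and ATF1/CREB1-KO, and set 3 holds control clones 9 to 11 and the triple knockout ATF1/CREB1/CREM-KO. Nothing in the labels tells whether libraries sharing a knockout label came from separate clones or cultures, so p-values measure the spread between these libraries only, which may be technical.

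MAP kinases are switched on by dual phosphorylation and switched off by dual-specificity phosphatases, many of which are themselves induced by the pathway they restrain. Sprouty and Spred proteins act further upstream, between receptor tyrosine kinases such as the EGF receptor and the kinase Raf, and limit the activation of ERK. ATF1, CREB1 and CREM are related transcription factors that bind the cAMP response element (CRE), and in collecting duct cells vasopressin raises cAMP. The knockout libraries therefore allow the levels of feedback genes with and without CRE letters in their promoters to be set side by side.

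The 250 bases before the annotated start were searched in the RefSeq promoter table (GRCm38.p6), which held 8 of the 10 genes, all except Dusp4 and Spry4. The full CRE, TGACGTCA, was found in 1 of the 8, Dusp1, 143 bases upstream of the start. The half-site TGACG, searched on both strands and also contained in the full CRE, was found in 3 of the 8: Dusp1, Dusp5 and Spred2. Among 32851 windows of the same length, 1.55% held the full CRE and 17.8% a half-site. The AP-1 letters TGACTCA, searched on both strands, occurred in 4.46% of the windows and in 0 of the 8. The 3 promoters with CRE letters and that of Dusp6, whose level differed in the triple knockout, are shown from 5′ to 3′ along the gene's own strand, with CRE letters in capitals. They lie at chr17:26508473-26508722 (Dusp1, minus strand), chr19:53528895-53529144 (Dusp5, plus strand), chr11:19924192-19924441 (Spred2, plus strand) and chr10:99262981-99263230 (Dusp6, plus strand).
Dusp1: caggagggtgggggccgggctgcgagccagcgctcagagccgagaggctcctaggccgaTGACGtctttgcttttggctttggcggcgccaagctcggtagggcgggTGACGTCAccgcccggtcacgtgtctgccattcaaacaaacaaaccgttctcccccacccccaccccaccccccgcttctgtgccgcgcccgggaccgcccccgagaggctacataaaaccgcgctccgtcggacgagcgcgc
Dusp5: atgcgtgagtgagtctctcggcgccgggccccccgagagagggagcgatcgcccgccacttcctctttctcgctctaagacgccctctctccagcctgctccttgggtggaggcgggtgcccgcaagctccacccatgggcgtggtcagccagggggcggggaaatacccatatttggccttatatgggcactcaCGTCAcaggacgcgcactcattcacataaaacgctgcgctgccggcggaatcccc
Spred2: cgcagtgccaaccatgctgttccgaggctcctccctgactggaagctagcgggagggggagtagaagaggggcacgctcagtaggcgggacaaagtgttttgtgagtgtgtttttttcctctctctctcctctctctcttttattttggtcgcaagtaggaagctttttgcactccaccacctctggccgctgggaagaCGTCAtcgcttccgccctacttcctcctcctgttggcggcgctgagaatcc
Dusp6: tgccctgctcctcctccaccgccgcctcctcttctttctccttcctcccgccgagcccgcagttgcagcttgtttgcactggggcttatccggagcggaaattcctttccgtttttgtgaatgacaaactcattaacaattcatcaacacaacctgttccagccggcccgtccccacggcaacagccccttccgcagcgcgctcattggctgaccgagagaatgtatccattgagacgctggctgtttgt
In Dusp1 the capitals mark the full CRE and, 191 bases upstream of the start, a separate half-site. Dusp5 has its half-site 55 bases and Spred2 51 bases upstream, both read on the opposite strand as CGTCA. The Dusp6 window holds no match, as do those of Dusp10, Spry1, Spry2 and Spred1. A match is a description of the letters only, and no binding was measured here.

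Levels are given in TPM, a transcript abundance that corrects for transcript length, so that levels of different genes can be compared. Depth is unknown. In the 8 control clones of sets 1 and 3, Dusp6 had the highest mean level of the 10 genes, 86.6 TPM ± 28.6 (SD, n = 8), followed by Spry1 at 53.1 TPM ± 12.6, with overlapping ranges. Dusp1 was at 32.4 TPM ± 2.63 in the same 8 libraries, below every Spry1 value. Dusp5 was at 20.6 TPM ± 6.11, Spred1 at 17.1 TPM ± 3.00, Spred2 at 11.45 TPM ± 2.10 and Dusp10 at 10.9 TPM ± 4.68, and the range of each of these overlapped with that of its neighbours in the order. Dusp4 at 5.50 TPM ± 1.91 and Spry2 at 3.28 TPM ± 1.24 were lower, again with overlapping ranges. Spry4 was listed between 0.06 and 0.88 TPM in all 22 libraries. It fell under the filter of a mean of at least 1 TPM and was not tested, so 9 of the 10 genes entered each comparison.

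**Figure D1:**
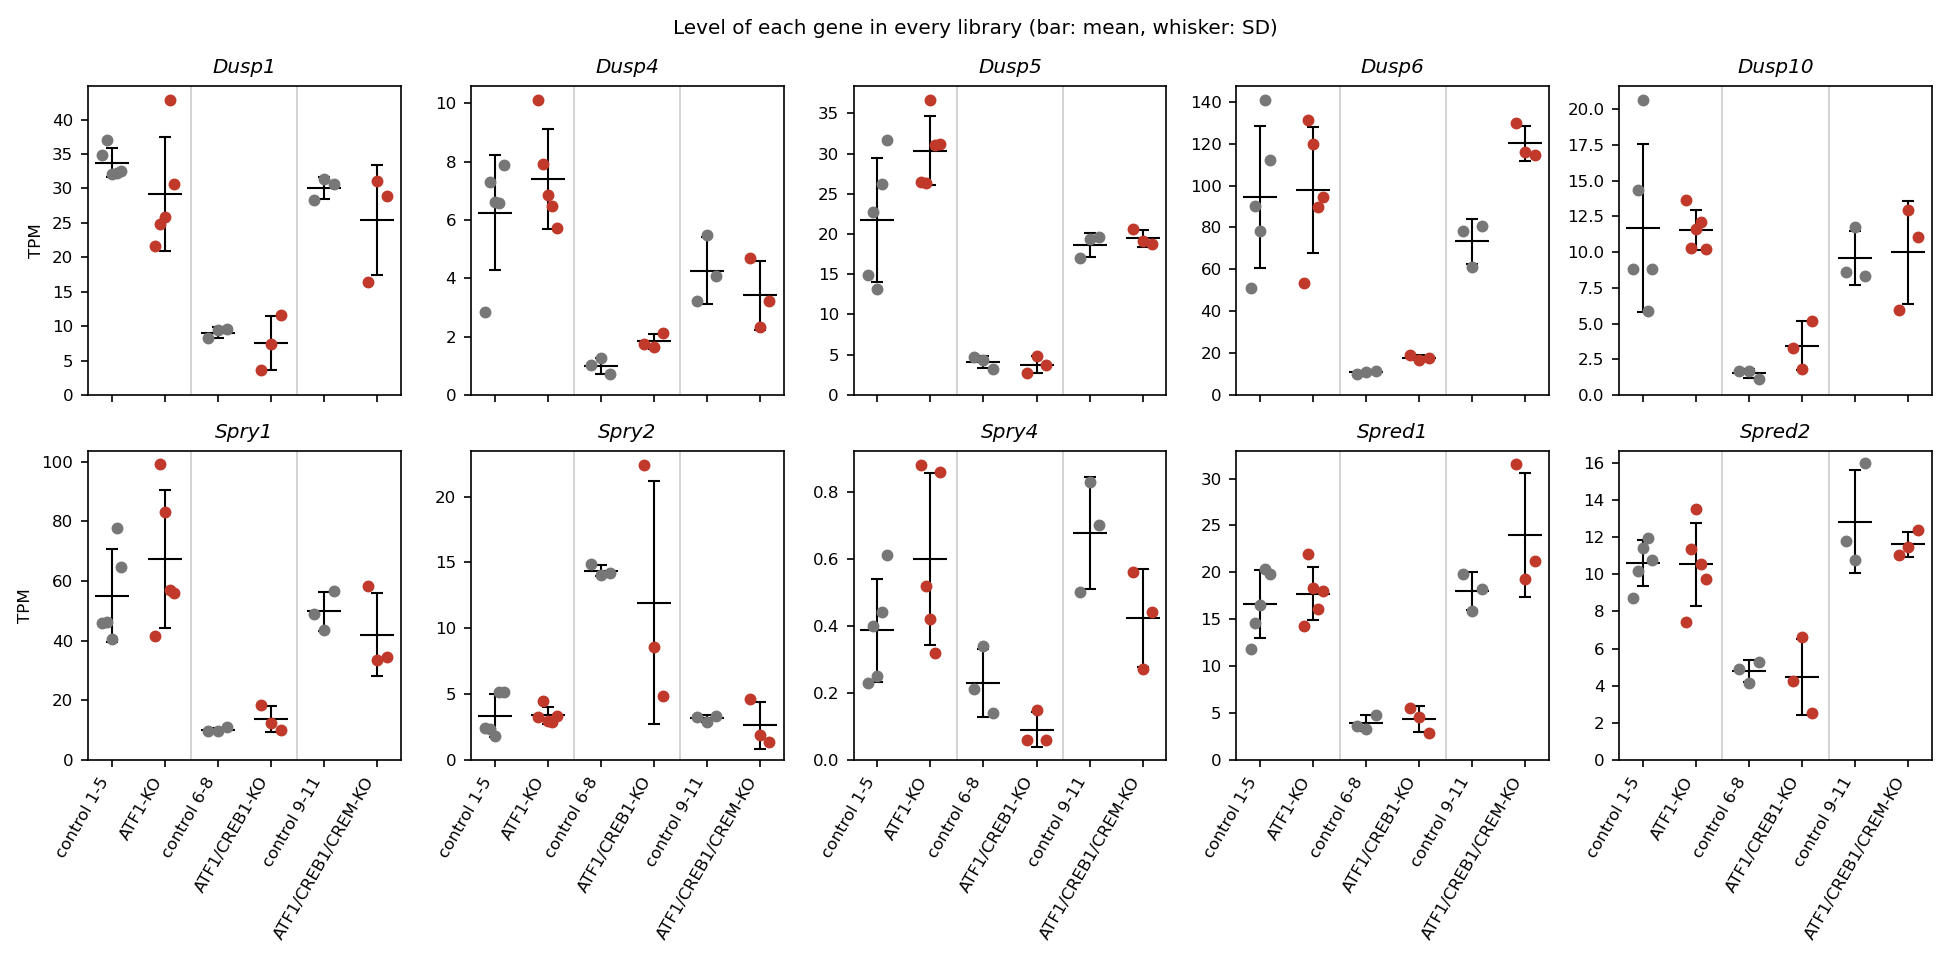
Level in TPM (y axis, linear, starting at 0) of each of the 10 genes in each of the 22 libraries, grouped on the x axis by label; grey points are control clones, red points knockout libraries, bars the mean and whiskers the SD, with vertical lines between the library sets. The libraries of set 2 lie lowest for Dusp6 and Spry1 and include the highest values for Spry2, and in set 3 all 3 Dusp6 values labelled ATF1/CREB1/CREM-KO lie above their control clones.

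The library sets differed strongly in the control clones themselves. In control clones 6 to 8 against the other 8, 8 of the 9 tested genes were lower and 1, Spry2, was higher (limma, adjusted p under 0.05), where 71.2% of all 13334 genes tested were called lower and 13.6% higher. The median log2 change of the 9 was -1.88, beside -1.34 for all genes tested. Dusp6 had the largest of these differences, with a log2 change of -2.84 (SE 0.24, limma adjusted p 9.16e-08), from 9.94, 10.95 and 11.31 TPM in control clones 6 to 8 to between 50.89 and 141.03 TPM in the other 8. Spry2 went the other way, at 14.85, 14.07 and 14.23 TPM against 1.81 to 5.12 TPM, a log2 change of 1.89 (SE 0.23, adjusted p 3.43e-06). The 85 ribosomal protein genes took 6.86% to 14.6% of the TPM in set 2 and 2.54% to 3.97% in the other sets; the part of this in the results was not tested. Every knockout label was therefore compared with the control clones of its own set, and bulk values cannot tell fewer cells expressing a gene from less RNA per cell.

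As a check of the labels, the targeted genes were examined. Atf1 was at 63.0%, 77.8% and 80.8% of the own-set control mean in the single, double and triple knockout, and Creb1 was at 61.0% and 49.6% in the last 2, with a limma adjusted p of 0.00305 for Creb1 in ATF1/CREB1/CREM-KO. Atf1 passed the test in none (limma adjusted p 0.555, 0.635 and 0.304), nor did Creb1 in ATF1/CREB1-KO (0.471). Creb1 was at 127% in ATF1-KO (0.514), and Crem at 133% and 253% in the single and double knockout (0.628 and 0.467). Crem was at 135% of its control mean in the libraries labelled as lacking CREM, so directions are those of libraries carrying that label. Aqp2, the vasopressin-regulated water channel, was at 1.02% in ATF1/CREB1/CREM-KO (limma adjusted p 0.00086). Principal cell markers summed to 1177 to 4672 TPM per library, whereas those of fibroblasts summed to at most 1.06 TPM and those of endothelium to at most 0.52 TPM. In the principal cell list 8 of 10 genes averaged at least 1 TPM, and Cdh16 was highest, with a mean of 1438 TPM. The list still summed to 3117, 3512 and 3544 TPM in the triple knockout, where Aqp2 was at 15.10, 16.05 and 15.31 TPM. The intercalated cell list summed to 0.79 to 20.8 TPM and the proximal tubule list to 1.77 to 25.4 TPM, each with 1 gene of 6 averaging at least 1 TPM (Aqp6 and Lrp2). The thick limb and distal tubule list summed to at most 4.55 TPM, with 0 of 4 genes averaging at least 1 TPM. Of the immune list 1 of 4 genes, Cd68, averaged at least 1 TPM. In set 3 these lists differed between the groups. The intercalated cell list summed to 11.17, 20.78 and 9.28 TPM in control clones 9 to 11 and to 0.79, 3.42 and 3.07 TPM in the triple knockout, and the immune list to 6.17, 8.02 and 5.00 against 2.28, 2.77 and 3.35 TPM, both lower without overlap. The thick limb and distal tubule list was higher without overlap, at 0.23, 0.43 and 0.46 against 4.55, 2.60 and 2.09 TPM, while the proximal tubule list overlapped, at 21.53, 19.82 and 19.93 against 25.38, 1.77 and 2.72 TPM. Atp6v1g3, Slc22a6, Col1a2, Cdh5 and Adgre1 were listed at 0 throughout.

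The phosphatases were considered first. Dusp6, a cytoplasmic phosphatase selective for ERK, was the 1 gene of the 9 called in any own-set comparison, and it rose in ATF1/CREB1/CREM-KO. Its level was 78.54, 61.11 and 80.82 TPM in control clones 9 to 11 and 129.92, 115.97 and 114.66 TPM in the libraries labelled ATF1/CREB1/CREM-KO. All 3 knockout libraries lay above all 3 control clones. The means were 73.5 TPM ± 10.8 (SD, n = 3) and 120 TPM ± 8.46 (SD, n = 3), a log2 change of 0.71 (SE 0.13, 95% interval 0.41 to 1.01, limma adjusted p 0.0220). In this comparison 9.17% of the 13258 genes tested were called, 3.91% as higher, and 14.5% were higher in every knockout library than in every control clone. The intercalated cell and immune marker sums were lower and the thick limb and distal tubule sum higher in these 3 libraries. Only Aqp6 and Cd68 averaged at least 1 TPM in the first lists, and 0 of 4 genes in the last. The part of these sums in the Dusp6 difference was not tested. Higher and lower calls were split with 57.4% lower, against 46.7% under quantile normalization and 46.9% under median-ratio scaling.

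The Dusp6 call was lost without control clone 9 (limma adjusted p 0.0758), without control clone 11 (0.0594) and without knockout replicate 2 (0.0715) or 3 (0.0650), while the change stayed between 0.58 and 0.78 over all 6 omissions. It was also lost in 1 fit over all 22 libraries (adjusted p 0.154; 8.02% of genes called), and against all 11 control clones, where the change was 1.30 (adjusted p 0.629).

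In ATF1/CREB1-KO, Dusp6 was at 19.12, 16.68 and 17.41 TPM, against 9.94, 10.95 and 11.31 TPM in control clones 6 to 8. Again every knockout library was above every control clone of its set, as for 6.67% of the 12579 genes tested. The means were 17.7 TPM ± 1.25 (SD, n = 3) and 10.7 TPM ± 0.710 (SD, n = 3), a log2 change of 0.67 (SE 0.17, 95% interval 0.28 to 1.07), which did not pass the test (limma adjusted p 0.328). In this comparison 0.0715% of the 12579 genes tested were called, and 4.58% in the fit over 22 libraries, where Dusp6 had an adjusted p of 0.196. Against all 11 control clones the Dusp6 value turned to -1.39 (adjusted p 0.121); control clones 6 to 8 have lower levels than the other 8. In ATF1-KO, Dusp6 ranged from 53.55 to 131.46 TPM with a median of 94.55 TPM, within the range of control clones 1 to 5. The log2 change was 0.07 (SE 0.29, 95% interval -0.56 to 0.70, limma adjusted p 0.965), and 0% of 13318 genes were called in that comparison.

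Dusp6 was thus 165% of its own-set control mean in the double and 163.5% in the triple knockout. A contrast averaging these own-set changes over both labels that lack CREB1, added after the values were seen, gave 0.69 (SE 0.21, 95% interval 0.26 to 1.12, limma adjusted p 0.0272), where 15.9% of all genes tested were called, 5.97% as higher. That call was lost without control clone 6 (adjusted p 0.0590), control clone 10 (0.0705) or ATF1/CREB1/CREM-KO replicate 1 (0.05002), and with no filter on low values (0.0662). The Dusp6 change in ATF1/CREB1/CREM-KO exceeded that in ATF1-KO by 0.64 (SE 0.37, 95% interval -0.13 to 1.42, limma adjusted p 0.456), which did not pass the test. Its changes in the 2 labels lacking CREB1 differed by 0.04 (95% interval -0.83 to 0.90, limma adjusted p 0.990), an interval wide enough to hold a difference as large as either change.

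**Figure D2:**
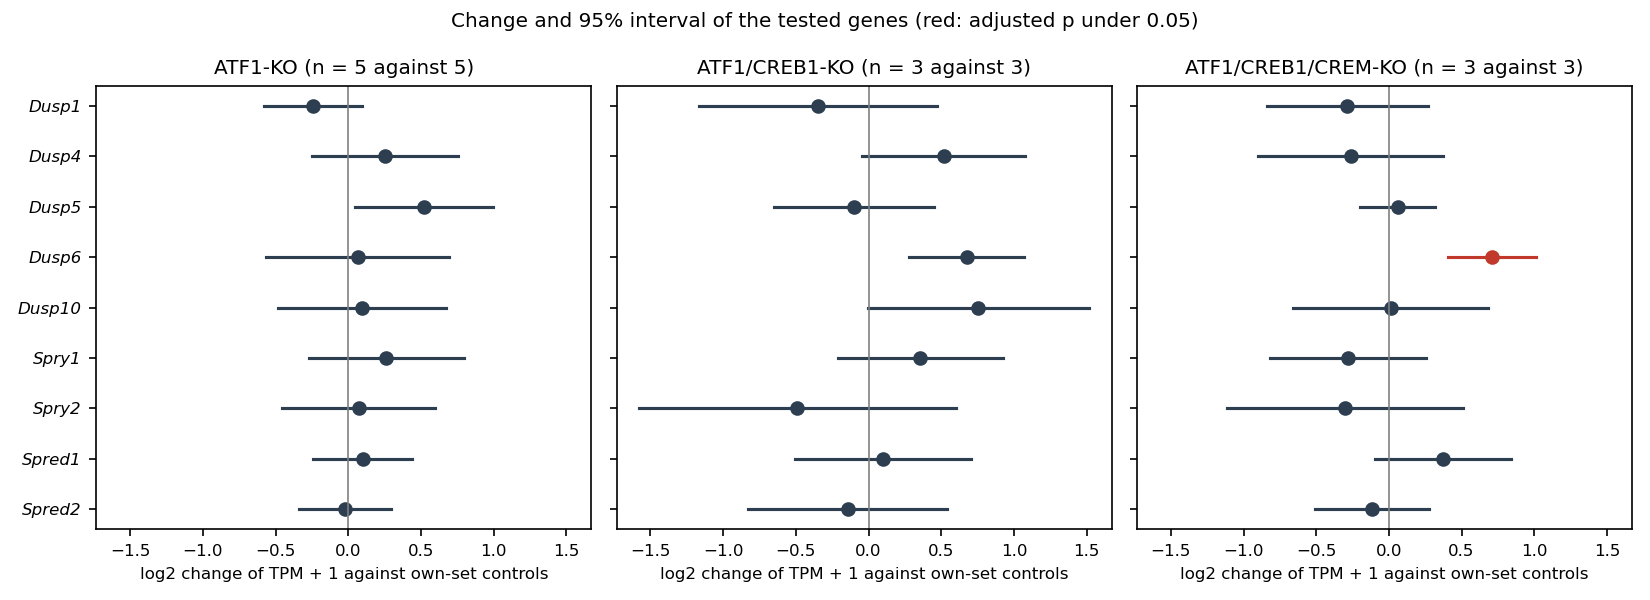
Change of log2(TPM + 1) against the control clones of the same library set (x axis, log2 units) for the 9 tested genes (y axis), 1 panel per knockout label; points are limma estimates, bars their 95% intervals, and red marks an adjusted p under 0.05. Dusp6 in ATF1/CREB1/CREM-KO is the 1 red point, and its estimate in ATF1/CREB1-KO lies at nearly the same place.

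Dusp1, an early-response phosphatase of the nucleus that acts on p38, JNK and ERK, carries the full CRE. Its estimates were negative in all 3 comparisons and passed the test in none. In set 1 it was at 32.05 to 37.03 TPM in control clones 1 to 5 and at 21.70, 24.77, 25.83, 42.93 and 30.67 TPM in ATF1-KO. In that knockout, 4 libraries were below every control clone and replicate 4 was above them all, giving a log2 change of -0.24 (SE 0.15, 95% interval -0.58 to 0.10, limma adjusted p 0.729). In ATF1/CREB1-KO its values of 3.67, 7.41 and 11.59 TPM spread to both sides of the 8.20, 9.48 and 9.51 TPM of the control clones. The log2 change there was -0.35 (95% interval -1.16 to 0.47, limma adjusted p 0.764). In ATF1/CREB1/CREM-KO, replicate 1 stood low at 16.35 TPM, while 31.06 and 28.89 TPM in the other two lay within the 28.35 to 31.39 TPM of control clones 9 to 11. The change was -0.28 (95% interval -0.84 to 0.27, limma adjusted p 0.470).

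Dusp5, a nuclear phosphatase selective for ERK, has a CRE half-site. It was at 14.88, 22.71, 13.22, 26.25 and 31.64 TPM in control clones 1 to 5 and at 26.46, 26.32, 36.70, 31.11 and 31.14 TPM in ATF1-KO, where the knockout libraries were all in or above the upper part of the control range. The log2 change of 0.52 (SE 0.22, 95% interval 0.05 to 1.00) had an unadjusted p of 0.0333 and a limma adjusted p of 0.637 over all genes. In the other comparisons the groups overlapped, at 3.20 to 4.71 TPM against 2.74 to 4.79 TPM in set 2 and at 16.98 to 19.65 TPM against 18.70 to 20.63 TPM in set 3. The changes were -0.10 (limma adjusted p 0.899) and 0.06 (95% interval -0.20 to 0.32, limma adjusted p 0.762).

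Dusp4 and Dusp10 did not pass the test under any label. In ATF1/CREB1-KO Dusp4, a nuclear phosphatase of ERK and JNK, was at 1.02, 1.26 and 0.71 TPM in control clones 6 to 8 and at 1.76, 1.64 and 2.13 TPM in the knockout (log2 change 0.52, 95% interval -0.05 to 1.08, limma adjusted p 0.557). Its control mean there was 0.997 TPM, so it passed the filter of 1 TPM only through its knockout values, and its separation of the groups is given as a description. Dusp10, which prefers p38 and JNK, was at 1.70, 1.70 and 1.12 TPM against 3.31, 1.78 and 5.21 TPM (log2 change 0.76, 95% interval -0.01 to 1.52, limma adjusted p 0.527). Over all genes tested, 6.67% were higher in every knockout library of this set than in every control clone, as Dusp6 and Dusp10 were. The Dusp4 and Dusp10 levels are low, and replicate 2 for Dusp10, at 1.78 TPM, lay just above the control clones. In the single and triple knockout both genes overlapped with their control clones: the Dusp4 changes were 0.25 (limma adjusted p 0.787) and -0.26 (0.571), and the Dusp10 changes were 0.10 (0.935) and 0.01 (0.984).

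Sprouty and Spred genes passed no own-set test. Spry1, the Sprouty gene with the highest level in the control clones of sets 1 and 3 but not of set 2, where Spry2 was higher, ranged from 40.62 to 77.69 TPM in control clones 1 to 5 and from 41.52 to 99.13 TPM in ATF1-KO (log2 change 0.26, limma adjusted p 0.794). In ATF1/CREB1-KO it was at 18.39, 12.26 and 9.99 TPM against 9.57 to 10.95 TPM in the control clones (0.35, limma adjusted p 0.693). In ATF1/CREB1/CREM-KO replicate 1 was at 58.21 TPM, above control clones at 49.08, 43.64 and 56.70 TPM, while replicates 2 and 3 at 33.49 and 34.38 TPM were below them. The estimate of -0.28 (95% interval -0.82 to 0.26, limma adjusted p 0.463) therefore covers libraries on both sides of the controls. Without replicate 1 it was -0.53 (SE 0.12) and passed the test (adjusted p 0.0210; 25.1% of all genes were called in that fit), resting on a pair of knockout libraries that were the closest of the pairs sharing a label and set over all genes.

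Spry2 had the same disorder among libraries sharing a label. In ATF1/CREB1-KO it was at 22.40, 8.58 and 4.86 TPM, on both sides of 14.85, 14.07 and 14.23 TPM in the control clones. The mean of 12.0 TPM ± 9.24 (SD, n = 3) had an SD far larger than that of the controls, 14.4 TPM ± 0.412 (SD, n = 3), and the log2 change was -0.49 (95% interval -1.58 to 0.60, limma adjusted p 0.750). In ATF1/CREB1/CREM-KO, replicate 1 at 4.64 TPM was above and replicates 2 and 3 at 1.89 and 1.33 TPM were below the 2.87 to 3.31 TPM of the control clones (-0.30, limma adjusted p 0.609). In ATF1-KO the values of 2.90 to 4.50 TPM lay within the control range of 1.81 to 5.12 TPM (0.07, limma adjusted p 0.948).

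Spred1 and Spred2 bind Ras-pathway components at the membrane and restrain Raf activation. Spred1 was at 31.52, 19.26 and 21.19 TPM in ATF1/CREB1/CREM-KO, against 19.86, 15.84 and 18.24 TPM in the control clones, so only replicate 1 was far from them (log2 change 0.37, 95% interval -0.10 to 0.84, limma adjusted p 0.275). Its changes in the single and double knockout were 0.10 (limma adjusted p 0.886) and 0.10 (0.909). Spred2, with a half-site in its promoter, changed by -0.02 (limma adjusted p 0.972), -0.15 (0.883) and -0.12 (0.693) in the order single, double and triple knockout. In set 2 its knockout values of 4.23, 6.61 and 2.55 TPM again lay on both sides of the 4.13 to 5.30 TPM of the control clones. The 3 genes with CRE letters in the printed windows had no called change against own-set control clones under any label. Of all genes tested, 0%, 0.0715% and 9.17% were called in the single, double and triple knockout. The absence of a call among 3 genes is near these shares.

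Over the 9 tested genes, the median log2 change was 0.10, 0.10 and -0.12 in the single, double and triple knockout, beside -0.003, -0.03 and -0.05 for all genes tested. Called genes numbered 0, 0 and 1. At an unadjusted p under 0.05 there was 1 in each comparison: Dusp5 in the first, Dusp6 in the others, where 7.61%, 9.53% and 27% of all genes tested had one. None of the differences between the labels' own-set effects was called for the 9 genes, with smallest limma adjusted p-values of 0.332, 0.621 and 0.456 and 0 genes at an unadjusted p under 0.05; of all 13295 genes, 1.46%, 0.188% and 3.57% were called in those 3 differences.

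Among the libraries, the genes formed patterns that the labels did not follow. Each value was taken as log2(TPM + 1) less the mean of the control clones of its set. Over the 22 libraries, Dusp6 and Spred1 had a Pearson r of 0.69, Spry1 and Spry2 of 0.60, and Spry1 and Spred1 of 0.54, and within groups these were 0.69, 0.77 and 0.82. Dusp1 went the other way, with r = -0.62 against Spred1 and -0.52 against Spry2, and so did Dusp10, with r = -0.63 against Spry2. The libraries behind these values share group means and unknown depth, so they are descriptions. The contrast was seen in some single libraries: replicate 1 of ATF1/CREB1/CREM-KO had the highest Spry1, Spry2 and Spred1 and the lowest Dusp1 and Dusp10 of its label, and replicate 1 of ATF1/CREB1-KO had the highest Spry1, Spry2 and Spred1 and the lowest Dusp1 of its own. In the latter Dusp10 was not lowest, at 3.31 TPM against 1.78 TPM in replicate 2. For Dusp1 the contrast was not seen in replicate 1 of ATF1-KO, which had the lowest Dusp1, Spry1 and Spred1 of its label. Libraries sharing a knockout label also differed over all genes, with median absolute log2 differences of 0.28 and 0.27 between replicate 1 and replicates 2 and 3 of ATF1/CREB1/CREM-KO, against 0.10 between the latter. In ATF1/CREB1-KO replicate 3 was the most distant, at 0.56 and 0.52 from the others, and its ribosomal protein share was 6.86%, beside 12.1% and 12.6%. Whether these differences bear on the feedback genes was not tested. Of all 13295 genes, Car12, a carbonic anhydrase, had the pattern most like that of Dusp6 over the 22 libraries (r = 0.81).

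**Figure D3:**
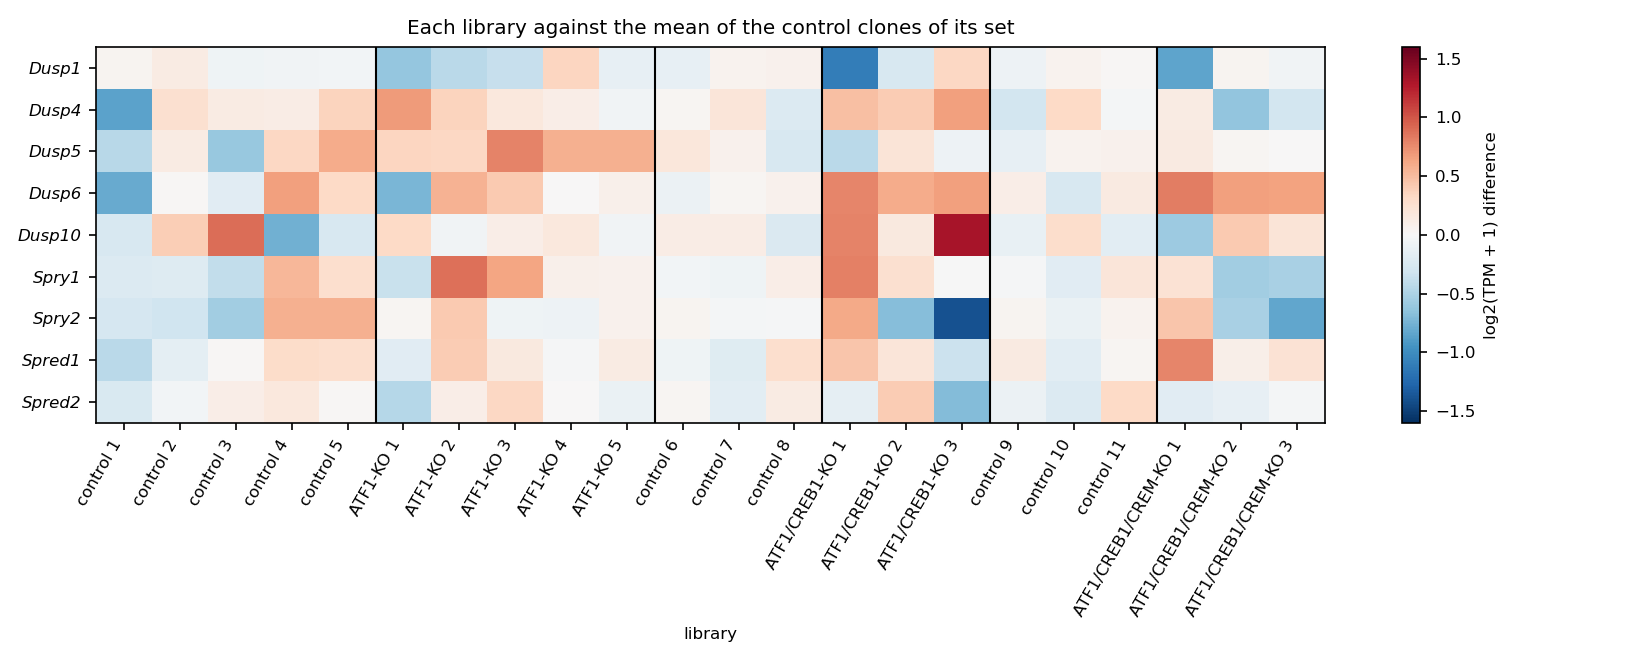
Difference in log2(TPM + 1) of each library (x axis) from the mean of the control clones of its set, for the 9 tested genes (y axis); red is higher, blue lower, and black lines separate the groups. Dusp6 is red in all 6 libraries labelled as lacking CREB1, whereas Dusp1, Spry1 and Spry2 differ in direction among libraries sharing a label.

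The other genes of these families were few in number and mostly low. Of the 7 listed, Dusp2, Dusp7, Dusp8, Dusp9, Dusp16, Spry3 and Spred3, 6 were found and up to 5 were tested. Dusp7, a close relative of Dusp6 and likewise selective for ERK in the cytoplasm, rose in ATF1/CREB1/CREM-KO. It was at 38.52, 42.74 and 41.54 TPM in control clones 9 to 11 and at 79.99, 57.12 and 56.92 TPM in the knockout, with no overlap. Of all genes tested in set 3, 14.5% were higher without overlap and 9.17% were called. The log2 change of Dusp7 was 0.63 (SE 0.15, 95% interval 0.28 to 0.98, limma adjusted p 0.0469, and 0.0214 in the fit over 22 libraries). This call just passed, and it was lost with no filter on low values (adjusted p 0.0890), without control clone 9, 10 or 11 (0.163, 0.111 and 0.137) and without knockout replicate 2 or 3 (0.0898 and 0.0838), and with replicates 2 and 3 averaged (0.0849). The averaged contrast called Dusp7 (0.51, limma adjusted p 0.00577) and Dusp16, a phosphatase of JNK and p38 (-0.35, 0.0442), where 15.9% of all genes were called. In ATF1/CREB1-KO, Dusp7 was at 13.96, 14.00 and 14.60 TPM against 9.76 to 11.37 TPM, again all higher, as for 6.67% of all genes tested. The log2 change of Dusp7 there was 0.39 (limma adjusted p 0.518). In ATF1-KO the Dusp7 change was 0.002 (limma adjusted p 0.997).

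The cascades that these proteins restrain were examined next. The ERK cascade begins with receptors such as Egfr and runs through Ras and Raf. Of its 24 tested genes, none was called under any label in the own-set fits with all libraries. Their median changes were -0.03, -0.13 and -0.03 in the order single, double and triple knockout. An unadjusted limma p under 0.05 was found for 0, 1 and 5 of them, beside 7.61%, 9.53% and 27% of all genes tested. Without triple-knockout replicate 1, Egfr, Rasa1 and Rps6ka1 were called lower there (-0.50, -0.38 and -0.28; 25.1% of all genes called), and without control clone 10 Egfr was called (-0.70; 3.7% of all genes called). In the contrast averaging both labels that lack CREB1, where 15.9% of all genes were called, 4 of the 24 were, all lower: Egfr (-0.71, limma adjusted p 0.00111), the Ras-inactivating protein Nf1 (-0.58, 0.0383), Lztr1 (-0.34, 0.0483) and the ERK-activated kinase Rps6ka1 (-0.25, 0.0343). With no filter on low values, median-ratio scaling or quantile normalization 2 of the 24 were called in that contrast, and from 1 to 6 on leaving out 1 library. Egfr, singled out after its values were seen, was at 54.34, 40.41 and 52.03 TPM in control clones 9 to 11 and at 29.19, 34.03 and 34.18 TPM in ATF1/CREB1/CREM-KO, a change of -0.57 (SE 0.14, limma adjusted p 0.0519). It was also lower in each ATF1/CREB1-KO library than in each control clone of set 2, at 5.96, 5.48 and 3.78 TPM against 8.14, 8.91 and 12.75 TPM (-0.84, limma adjusted p 0.371; 0.0133 in the fit over 22 libraries), and the change there was lower than that in ATF1-KO by a called difference of -1.001 (SE 0.24, 95% interval -1.50 to -0.51, limma adjusted p 0.0372). Of the 12579 genes tested in set 2, 1554 were lower in every knockout library than in every control clone. The Egfr difference between ATF1/CREB1/CREM-KO and ATF1-KO, -0.73, was not called (limma adjusted p 0.107).

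Of the 14 tested genes of the p38 and JNK cascades, 1 was called in the own-set fits: Mapk14, which encodes p38 alpha, rose in ATF1/CREB1/CREM-KO from 102 TPM ± 0.470 to 140 TPM ± 15.4 (SD, n = 3 each; log2 change 0.45, limma adjusted p 0.0372). That call was lost without control clone 9, 10 or 11 and without knockout replicate 2 or 3, with adjusted p-values up to 0.134, with no filter on low values (0.0619) and with replicates 2 and 3 averaged (0.117). Mapk13, which encodes p38 delta, was called with it in that label under median-ratio scaling and quantile normalization (0.51 and 0.49, limma adjusted p 0.0387 and 0.0409). In ATF1/CREB1-KO none was called against own-set control clones, but 2 were in the fit over 22 libraries: Mapk13 at 0.88 (limma adjusted p 0.0350) and Mapk8, which encodes JNK1, at -0.76 (0.0403). The contrast averaging both labels called 3 of the 14, Mapk13 (0.67, limma adjusted p 0.00858), Mapk8 (-0.57, 0.0121) and Mapk14 (0.32, 0.0200). That contrast called 15.9% of all genes tested. The own-set fit of ATF1/CREB1/CREM-KO called 9.17%, and the fit over 22 libraries 4.58% for ATF1/CREB1-KO.

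Other genes that respond to ERK did not move in 1 direction. Of 11 tested in ATF1/CREB1/CREM-KO, Fosl1, an AP-1 subunit, was called: it rose from 8.22, 9.43 and 11.38 TPM to 31.25, 21.66 and 19.19 TPM (log2 change 1.21, SE 0.21, limma adjusted p 0.0197), and the call was lost without control clone 9, 10 or 11 or knockout replicate 2 (adjusted p 0.0570 to 0.0899). The median of the 11 was -0.18, and 9.17% of all genes tested were called in that comparison. Without replicate 1 of the triple knockout, Phlda1 (-0.79, limma adjusted p 0.00617) and Myc (-0.29, 0.0292) were also called, both lower, beside 25.1% of all genes. The averaged contrast called 2 of the 11, beside 15.9% of all genes. Fosl1 was higher (1.14, limma adjusted p 0.000962) and the other was lower (-0.41, 0.00717). In ATF1/CREB1-KO, Fosl1 was at 7.42, 9.45 and 16.49 TPM against 6.39, 3.99 and 3.50 TPM (1.07, limma adjusted p 0.398, and 0.0433 in the fit over 22 libraries). That fit called 1 gene of this list higher and 1 lower, beside 4.58% of all genes. In ATF1-KO, Ccnd1, which encodes cyclin D1, and Etv4, an ETS factor, both singled out after their values were seen, were higher in all 5 libraries than in all 5 control clones (0.68 and 0.78, limma adjusted p 0.514 and 0.555). Of the 13318 genes tested there, 75 were higher in every knockout library than in every control clone.

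Immediate early genes, many of which are targets of both ERK and CREB, had a median change of -0.56 over 12 tested genes in ATF1/CREB1/CREM-KO, where 2 fell and 0 rose. Fos fell from 27.1 TPM ± 1.40 to 14.4 TPM ± 1.43 (SD, n = 3 each; log2 change -0.87, SE 0.11, limma adjusted p 0.00889). Nr4a1, an orphan nuclear receptor, fell from 40.1 TPM ± 3.11 to 10.55 TPM ± 2.45 (log2 change -1.85, SE 0.16, limma adjusted p 0.00259). Without replicate 1 of the triple knockout 8 of the 12 were called, 6 lower and 2 higher, where 25.1% of all genes were called. The averaged contrast called 5 of the 12, all lower, where 15.9% of all genes were called. In the own-set fit of ATF1/CREB1/CREM-KO with all libraries, 9.17% of all genes were called. The Fos call was lost without control clone 9 (adjusted p 0.0524) or 11 (0.0535). Dexamethasone was in the medium of every group. Of 6 glucocorticoid-responsive genes, 2 rose in ATF1/CREB1/CREM-KO: Sgk1, a serum- and glucocorticoid-regulated kinase (log2 change 3.57, limma adjusted p 0.00418), and Fkbp5, a co-chaperone of the glucocorticoid receptor (0.85, limma adjusted p 0.0405). Their part in the Dusp6 difference was not tested. In that comparison 9.17% of all genes tested were called. In ATF1/CREB1-KO, 0 of the 6 were called in the own-set fit. There, 1 was called in the fit over 22 libraries, beside 4.58% of all genes. Also 1 was called under median-ratio scaling and 1 under quantile normalization, where 18 and 11 of all genes were called. Without replicate 3 of the double knockout Sgk1 was called (2.76, limma adjusted p 0.0455), with 60 of all genes called. The Sgk1 change in the triple knockout exceeded that in the double by 0.59 (SE 1.17), which was not called (limma adjusted p 0.9045). It exceeded that in the single knockout by 4.96 (0.0106, 3.57% of all genes called). The double exceeded the single by 4.37 (limma adjusted p 0.0404, 1.46% of all genes called). The contrast averaging both labels called 3 of the 6, beside 15.9% of all genes, with Sgk1 at 3.28 (limma adjusted p 0.000713). The Fkbp5 call was lost without control clone 9, 10 or 11 or replicate 2 or 3 (adjusted p 0.117 to 0.144), with no filter (0.0890) and with replicates 2 and 3 averaged (0.117). Against all 11 control clones no gene of these lists was called in the triple knockout, Nr4a1 and Sgk1 included.

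**Figure D4:**
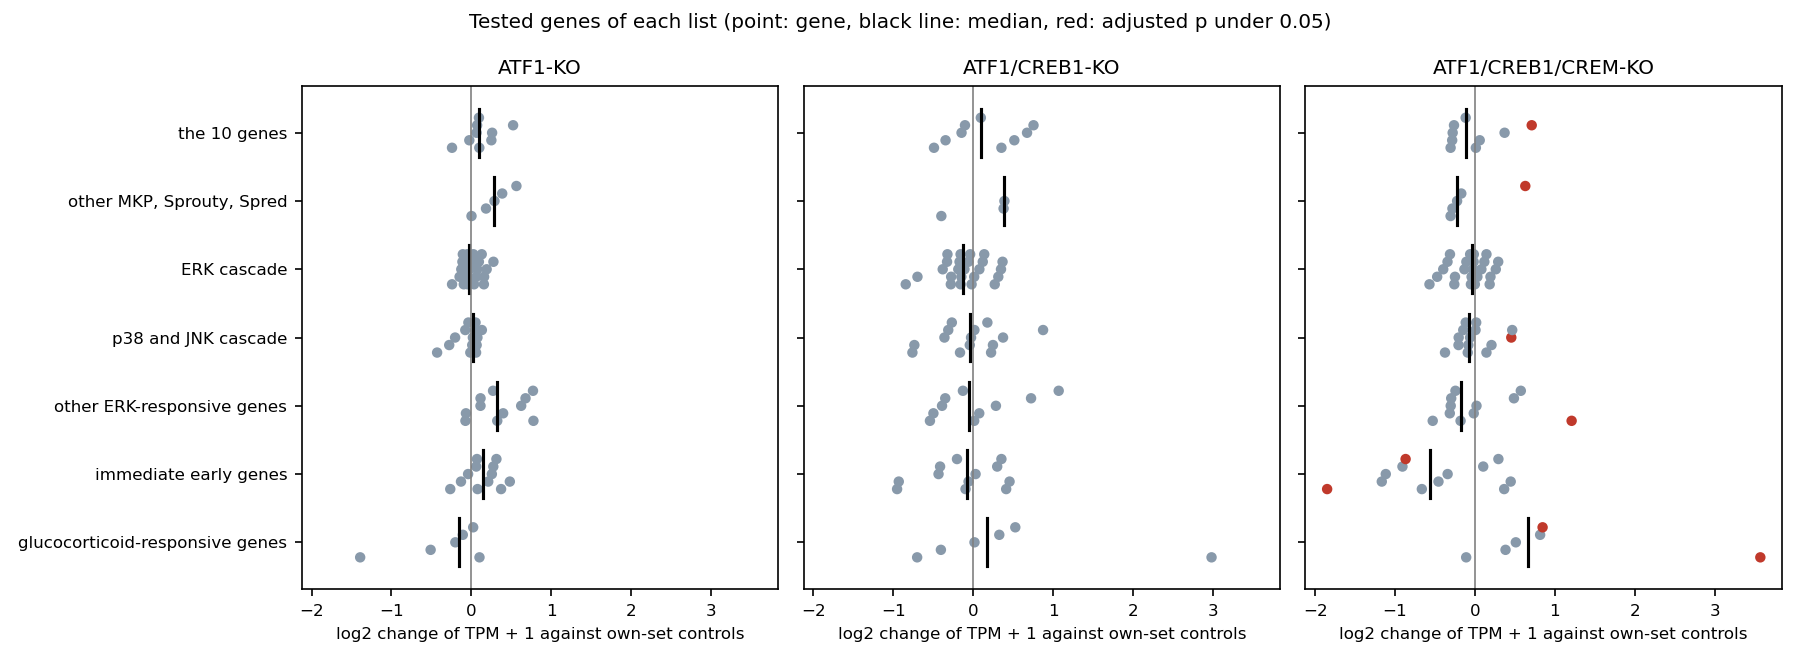
Change of log2(TPM + 1) against the control clones of the same set (x axis, log2 units) for every tested gene of each list (y axis), 1 panel per knockout label; each point is a gene, black lines are list medians and red marks an adjusted p under 0.05. Red points occur in ATF1/CREB1/CREM-KO alone in these own-set fits, and the immediate early genes there have a median of -0.56.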

How the data were processed

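RNA sequencing libraries were made from total RNA with the SMARTer V4 Ultra Low kit and Nextera XT, per the labels' protocols. STAR and RSEM are named, without versions, in the submitters' processing notes; the genome build, the annotation and whether counting used strand are not given in the sources used here. The deposited values are TPM, as read from the column totals, which are equal and at the size that defines this unit; read counts were not analysed here, so depth and counting error are unknown. TPM makes a gene's value depend on all others, and a strong set-wide shift in composition, as in set 2, moves every value.

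Values were transformed as log2(TPM + 1), genes averaging under 1 TPM in a comparison were left out, and limma 3.58.1 (lmFit, then eBayes with trend; R 4.3.3) gave the tests. Benjamini-Hochberg adjustment covered every gene tested, and an adjusted p under 0.05 was a call. Fold changes on this scale understate those of low genes. Each label was fitted with its own-set control clones only. Differences between labels came from 1 fit over 22 libraries with a mean per label and set. The steps were tested on simulated data. The 10 genes, the lists and the tests were chosen with earlier results of these data known. All 10 genes were named throughout, from other lists the genes called in own-set fits, at most 4 per list, and the 1 gene most alike a called member; Egfr, Ccnd1, Etv4 and genes called only in other fits, omissions or scalings were named after their values were seen. A gene of the lists is not reported here by name. Alternatives were another pseudocount (0.1), no filter, median-ratio scaling, quantile normalization, all 11 control clones, 1 fit over 22 libraries, a replicate block and leaving out each library.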

Additional observations from a re-analysis of the deposited data

Results flagged for a closer look

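Dusp4 was at 2.84 TPM in control clone 1, apart from the other 4 control clones of set 1, which lay between 6.57 and 7.87 TPM. Spry2 was at 4.50 TPM in replicate 2 of ATF1-KO, apart from the other 4 libraries of that label at 2.90 to 3.31 TPM. In each case the gap to the nearest library was a larger share of the group's whole range (0.742 and 0.744) than Dixon's critical value for groups of 5. Chance flags about 1 in 20 such groups, and 20 were examined.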

How the results depend on the processing

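No gene of the 10 was called in the single knockout under any alternative, and the replicate block, run there although the numbers do not pair the libraries (correlations of same-numbered deviations -0.10 to 0.09), called 0 of the 9 tested and 0 of all genes. No paired analysis was possible because control and knockout libraries share no number within a set for the double and triple knockout. Against all 11 control clones, 2 of the 9, Dusp1 (-1.60, adjusted p 0.0446) and Dusp5 (-1.60, adjusted p 0.0470), were called in the double knockout and 0 in the triple, and 0 also in the fit over 22 libraries and with triple-knockout replicates 2 and 3 averaged, an alternative added after seeing the data. Over all genes, calls in the double knockout went from 9 to 4260, 609, 0 and 18 (all controls, 22 libraries, no filter, median-ratio scaling), and in the triple from 1216 to 137, 710 and 405 (all controls, no filter, averaged). Genes with different effects between the double and single knockout went from 194 to 120 with no filter, 389 with median-ratio scaling and 330 with quantile normalization; between the triple and double they went from 25 to 16 with pseudocount 0.1, with median-ratio scaling and with quantile normalization. For the averaged contrast, 0 of the 9 were called with no filter.

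Signs turned against all 11 control clones for Dusp1 (0.29), Spry2 (-0.45) and Spred2 (0.18) in the single knockout, for Dusp4 (-0.68), Dusp6 (-1.39), Dusp10 (-0.82), Spry1 (-1.29), Spry2 (0.89) and Spred1 (-1.27) in the double, and for Dusp1 (0.088), Spry1 (0.27) and Spred2 (0.33) in the triple; this alternative mixes library sets that differ in the control clones. They also turned under quantile normalization for Spred2 in the single (0.0077) and Dusp5 in the double (0.0068), on averaging for Dusp10 in the triple (-0.14), and with pseudocount 0.1 for the difference of Dusp6 between triple and double (-0.0016). The causes of these were not tested.

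Leaving out 1 library at a time, genes of the 9 called ranged from 0 to 2 in the triple knockout, the second being Spry1 without replicate 1, and from 0 to 1 for the averaged contrast. All genes called ranged from 0 to 1 (without control clone 4), 0 (without double-knockout replicate 2) to 60 (without replicate 3) and 185 (without control clone 9) to 3317 (without triple-knockout replicate 1), from 88 to 620, 7 to 59 and 273 to 680 for the differences double less single, triple less double and triple less single, and from 1615 to 3037 for the averaged contrast. Changes that crossed 0 ranged, in the single knockout, from -0.13 to 0.26 (Dusp6), -0.10 to 0.32 (Dusp10), -0.066 to 0.21 (Spry2), -0.0083 to 0.18 (Spred1) and -0.11 to 0.082 (Spred2), in the double from -0.68 to 0.035 (Dusp1), -0.26 to 0.060 (Dusp5), -0.075 to 0.32 (Spred1) and -0.42 to 0.13 (Spred2), and in the triple from -0.0031 to 0.10 (Dusp5), -0.19 to 0.31 (Dusp10) and -0.22 to 0.041 (Spred2). The Dusp6 difference between triple and double ranged from -0.090 to 0.11. Immediate early genes called in the triple knockout numbered 2 in the own-set fit, 4 under median-ratio scaling and 5 in the fit over 22 libraries. The 5 were all lower (Fos, Nr4a1, Jun, Ier5 and Btg2). Under median-ratio scaling Fos and Nr4a1 were lower, whereas Klf6 (0.34, limma adjusted p 0.0499) and Jund (0.50, 0.0446) were higher. Of all genes, 9.17% were called in the own-set fit and 8.02% in the fit over 22 libraries. Where omission left 2 libraries in an arm, the spread was pooled with the other arm. TPM gives no depth, so no limit from counting can be set.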
